A study of Mus musculus with 6 samples.

Results

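Endothelial cells line the blood vessels, and 34 genes known for their expression in these cells were followed in the mouse joint interzone. They were found by the gene names in the array files. All 34 were among the 18001 genes tested. They comprised 5 junction and adhesion proteins, 4 genes of the angiopoietin and Tie system, 8 surface glycoproteins, 3 secreted proteins, 6 genes of G protein-coupled receptors and an accessory protein, 2 regulators of GTPases, and 6 transcriptional regulators. The study compared total RNA of the intermediate and the outer interzone of mouse embryos at 15.5 days of gestation, on 3 one-colour arrays per group. A replicate was 1 embryo. The labels name no genotype, strain, treatment or transgene for either group, and they do not say by what means the layers were taken apart. An interzone is a condensation that marks the site of a future joint, and Gdf5, its usual marker, stood at a mean log2 level of 5.69 in both groups. On the outer arrays Gdf5 ranged from 4.69 to 6.81. Of 5 interzone markers, Gdf6 alone differed at an adjusted p of 0.05 (limma). Gdf6 was 3.4-fold lower in the outer interzone (adjusted p 0.0167), with signal well above background on 2 outer arrays.

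Developing cartilage is a tissue without vessels, whereas the mesenchyme around it carries a capillary network. Endothelial cells are held together by a specialised cadherin and claudin, respond to vascular endothelial growth factors (VEGF) and angiopoietins, and keep their identity through ETS, SoxF, GATA and Tal factors. Several of the same genes are also active in blood cells and platelets, which share a progenitor with endothelium. In bulk RNA, fewer endothelial cells and less RNA of these genes per cell cannot be told apart.

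All levels below are the log2 processed signal of a probe minus the log2 of its array's 75th percentile, so that 0 is the 75th percentile of the array, and a difference is outer minus intermediate on that scale. Levels of different genes are not compared, because each probe has its own brightness. That percentile was 144 to 344 units of processed signal on the intermediate arrays, and 47.4, 290 and 150 on the outer arrays. Outer replicate 1 stood apart as the dimmest array, since 35.6% of its spots were well above background, and 45.1% to 53.4% were on the other arrays. Its results are therefore given with and without it. All 3 intermediate arrays and outer replicate 1 lay on 1 slide, and outer replicates 2 and 3 on another.

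The promoters show what some of these genes share in sequence, so 4 are printed here. RefSeq promoters on GRCm38.p6, from 250 bases before to 50 bases after the transcription start, were matched for 14 of the 34 genes, which have 19 promoters in the table. The ETS motif CAGGAAG, searched on both strands, was present in 7 of the 19 promoters (36.8%), against 13.3% of 32851 mouse promoters. These 7 belonged to Cd34, Egfl7, Emcn, Gpr116, Rasip1 and Robo4. The other ETS motif searched, CCGGAAG, and the TATA box TATAAA were in none of the 19, against 8.86% and 13.6% of all promoters. The Sox motif AACAAT was in 2 of the 19 (against 3521 of the 32851) and the GATA motif AGATAA in 2 (10.5%, against 11.2% of all). None of the 5 motifs contains another. Such matches describe letters in a window and are not sites of binding, and the promoters below were chosen after the matches had been seen. They belong to 4 genes that were lower in the outer interzone, and Egfl7 has further promoters. Capitals mark a match to any of the 5 motifs on either strand. In Emcn (chr3:137340828-137341127, plus strand) they are an ETS match on the opposite strand, whose first printed base is at -174 from the start, followed by a Sox match. In Egfl7 (chr2:26580833-26581132, plus strand) they are 2 ETS matches on opposite strands, which begin at -90 and -49. In Rasip1 (chr7:45627287-45627586, plus strand) the capitals are an ETS match on the opposite strand that begins at -91. In Tek (chr4:94739039-94739338, plus strand) they are a Sox match on the opposite strand and a GATA match.
Emcn: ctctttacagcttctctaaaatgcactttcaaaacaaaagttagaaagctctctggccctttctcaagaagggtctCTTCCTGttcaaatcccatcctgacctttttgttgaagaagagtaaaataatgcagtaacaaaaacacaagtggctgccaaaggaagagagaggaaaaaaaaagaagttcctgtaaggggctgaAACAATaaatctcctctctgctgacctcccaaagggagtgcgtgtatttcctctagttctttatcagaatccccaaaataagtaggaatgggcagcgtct
Egfl7: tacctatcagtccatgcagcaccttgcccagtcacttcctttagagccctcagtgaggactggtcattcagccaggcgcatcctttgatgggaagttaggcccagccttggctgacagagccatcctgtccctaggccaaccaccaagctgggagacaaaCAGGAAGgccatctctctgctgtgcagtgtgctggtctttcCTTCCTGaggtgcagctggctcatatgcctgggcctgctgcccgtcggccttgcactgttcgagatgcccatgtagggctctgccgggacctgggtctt
Rasip1: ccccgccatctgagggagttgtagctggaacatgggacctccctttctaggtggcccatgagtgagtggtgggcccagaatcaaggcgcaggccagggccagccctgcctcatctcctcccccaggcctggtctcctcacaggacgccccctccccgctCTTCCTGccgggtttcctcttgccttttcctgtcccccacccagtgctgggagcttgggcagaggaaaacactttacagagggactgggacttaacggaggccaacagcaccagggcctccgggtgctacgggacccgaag
Tek: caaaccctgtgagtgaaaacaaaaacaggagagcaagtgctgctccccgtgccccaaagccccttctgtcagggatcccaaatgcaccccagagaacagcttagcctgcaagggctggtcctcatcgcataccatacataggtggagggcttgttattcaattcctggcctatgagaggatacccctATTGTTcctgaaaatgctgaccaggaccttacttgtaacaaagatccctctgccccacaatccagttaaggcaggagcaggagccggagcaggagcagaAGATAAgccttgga

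Endothelial genes were lower in the outer than in the intermediate interzone. Of the 34 genes, 19 were lower and 0 higher at an adjusted p of 0.05 (limma), where 2.48% of all tested genes were called lower and 1.57% higher. The 19 were Aplnr, Cd93, Cdh5, Clec14a, Ecscr, Egfl7, Emcn, Esam, Gpr182, Icam2, Mmrn2, Pecam1, Plvap, Rasip1, Sox18, Sox7, Tal1, Tek and Tie1. At an unadjusted p of 0.05, 31 genes were lower and 0 higher. The share of all genes at that unadjusted threshold was not counted, here or in the alternatives. In 30 genes every outer array lay below every intermediate array, where 11.4% of all genes did so. The median difference of the 34 was -2.22, against 0.10 over all genes, and 33 of them were below 0. All 34 probes were well above background on all 3 intermediate arrays, but 14 passed the filter only through that group, so the counts and the median over the 34 are a description. In the outer group, Emcn, Gata2, Gpr116, Ptprb, S1pr1, Sox17, Sox7, Tal1, Tie1 and Vwf were well above background on 2 arrays, Angpt2, Gpr182 and Tek on 1, and Eltd1 on 0. Of the 20 genes well above background on all 6 arrays, 13 were called lower. A fit limited to genes with such signal called 14 of these 20 lower, and 1.43% of all genes tested there.

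The count of calls moved with single arrays far more than the direction did. Without outer replicate 1, 20 genes were called lower (1.43% of all genes tested), 17 of them among the 19, and the median difference was -1.80 with 33 genes below 0. Leaving out outer replicate 2 gave 25 calls (3.44% of all genes), and leaving out outer replicate 3 gave 3, Aplnr, Emcn and Tek (0.211% of all genes). Leaving out intermediate replicate 1, 2 or 3 gave 2, 9 and 1 calls (0.142%, 1.12% and 0.105% of all genes), Aplnr being called each time. In all 6 of these fits 33 genes were below 0. With the replicate number as a block, 26 were called (4.44% of all genes), and all 19 were among them. With the slide as a block 26 were called (4.08%), and within slide 1 27 were called (4.38%), with a median of -2.91 in both. Both slide fits set outer replicate 1, the one outer array on that slide, against the 3 intermediate arrays, so their outer arm is 1 sample, taken to vary as the other arrays do. The scaling of the arrays mattered too, with 30 calls after scaling to the median (5.53%), 29 with the authors' deposited values (5.21%) and 12 after quantile normalization (1.58%), which lost Cdh5, Ecscr, Gpr182, Mmrn2, Sox7, Tal1 and Tek. Background correction by normexp with an offset of 50, followed by quantile normalization, gave smaller differences for dim probes. Examples were -1.22 in Tek, -1.0 in Gpr182, -1.36 in Tal1, -1.34 in Sox7, -1.86 in Tie1 and -2.06 in Emcn. All normexp values below come from that combined setting.

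**Figure D1:**
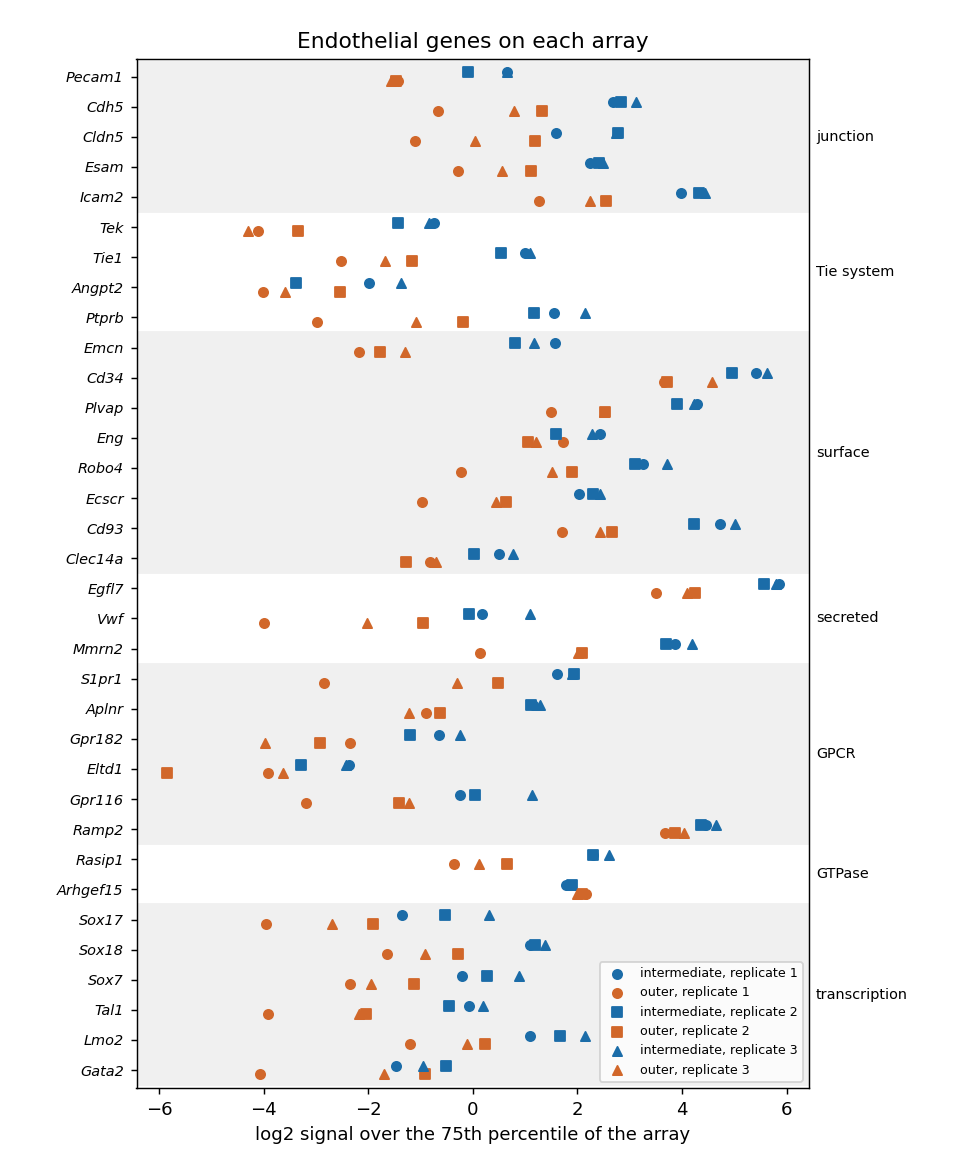
Level of each of the 34 endothelial genes on each array, in log2 units relative to the array's 75th percentile (horizontal axis), with intermediate arrays in blue, outer arrays in orange, and 1 marker shape per replicate number; shaded bands separate the roles. The orange points lie to the left of the blue ones in 30 genes, overlap with them in Angpt2, Eng and Gata2, and lie to the right in Arhgef15.

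Of the 5 junction proteins, 4 fell, and the fifth missed the threshold. Pecam1, an adhesion molecule of endothelial contacts that platelets and leukocytes also carry, stood at 0.66, -0.09 and 0.66 on the intermediate arrays and at -1.43, -1.48 and -1.56 on the outer arrays. The outer arrays differed little among themselves and all lay below the intermediate ones, a 3.73-fold difference (log2 -1.90 ± 0.24, SE, n = 3 per group; adjusted p 0.0147). Its probe lies on chromosome 11 at 106540864 to 106540923 (build mm9). Cdh5, the cadherin of endothelial adherens junctions, measured 2.68, 2.83 and 3.12 in the intermediate and -0.66, 1.32 and 0.79 in the outer interzone. Outer replicate 1 was the lowest by a wide margin, and the groups did not overlap (-2.40 ± 0.48, adjusted p 0.0450). Without that array the difference was -1.83 (adjusted p 0.0317). Icam2, a ligand of leukocyte integrins, was 4.68-fold lower (-2.23 ± 0.34, adjusted p 0.0220), and Esam, an immunoglobulin-type adhesion molecule of endothelial tight junctions, 3.78-fold (-1.92 ± 0.35, adjusted p 0.0343). Cldn5, the claudin of endothelial tight junctions, read 1.59, 2.77 and 2.73 against -1.10, 1.19 and 0.04. Those groups did not overlap, yet their spread was wide and the difference of -2.32 ± 0.60 did not pass the test (adjusted p 0.0864). It passed with the replicate block (adjusted p 0.0302), but not without outer replicate 1 (-1.75, adjusted p 0.144).

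Both Tie receptors were called lower, and both passed the filter only through the intermediate group. Tek, the receptor of the angiopoietins, was at -0.74, -1.44 and -0.84 on the intermediate arrays and at -4.12, -3.35 and -4.31 on the outer arrays. The measured difference was 7.56-fold (-2.92 ± 0.31, adjusted p 0.00905), but the probe (chromosome 4, 94540624 to 94540683, mm9) was well above background on 1 of the 3 outer arrays. The normexp correction gave -1.22 (adjusted p 0.0111), and quantile normalization lost the call (adjusted p 0.0515). Tie1, the related receptor that acts in complex with Tek, measured 1.00, 0.54 and 1.09 against -2.53, -1.16 and -1.68. It was 6.35-fold lower with no overlap (-2.67 ± 0.36, adjusted p 0.0167) and well above background on 2 outer arrays. Ptprb, the phosphatase that removes phosphate from Tek at cell contacts, read 1.55, 1.16 and 2.15 against -2.98, -0.19 and -1.09. Its outer arrays spread over more than the distance between the nearest arrays of the groups, and the difference of -3.04 ± 0.68 missed the threshold (adjusted p 0.0585). Without outer replicate 1 it was -2.26 and passed (adjusted p 0.0487). Angpt2, the angiopoietin that endothelial cells release themselves, was at -1.99, -3.39 and -1.37 against -4.02, -2.55 and -3.59. Here the groups overlapped, since outer replicate 2 was 0.83 above intermediate replicate 2 (-1.14 ± 0.58, adjusted p 0.310). Angpt1, the ligand made by surrounding cells, stood at 2.57 ± 0.24 and 2.03 ± 0.27 (mean ± SD, n = 3), a difference of -0.55 that did not pass (adjusted p 0.212).

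Among the 8 surface glycoproteins, 5 fell. Emcn, a sialomucin of capillaries and veins, was at 1.58, 0.81 and 1.17 in the intermediate and -2.18, -1.77 and -1.29 in the outer interzone. All outer arrays lay far below, a 7.62-fold difference (-2.93 ± 0.30, adjusted p 0.00810) that was -2.71 without outer replicate 1 (adjusted p 0.0252). Its probe was well above background on 2 outer arrays and passed the filter only through the intermediate group. Cd93, a lectin-like receptor, measured 4.73, 4.23 and 5.02 against 1.71, 2.67 and 2.43, with no overlap (5.23-fold, -2.39 ± 0.32, adjusted p 0.0159). Plvap, which forms the diaphragms of endothelial pores and caveolae, was 3.89-fold lower (adjusted p 0.0234), and Ecscr, a regulator of endothelial migration, 4.66-fold (adjusted p 0.0383). Clec14a, from the same receptor family as Cd93, was 2.57-fold lower (-1.36 ± 0.26, adjusted p 0.0377). Its call was lost without outer replicate 1 (-1.42, adjusted p 0.0790) and with the slide block (-1.25, adjusted p 0.0929).

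The other 3 surface genes did not pass. Cd34, a sialomucin that blood progenitors and stromal cells also carry, read 5.42, 4.96 and 5.62 against 3.66, 3.72 and 4.57. The groups stayed apart, at -1.35 ± 0.31 (adjusted p 0.0614), and the replicate block brought the adjusted p to 0.0338. Without outer replicate 1 the adjusted p was 0.145. Robo4, the endothelial member of the Roundabout receptors, measured 3.26, 3.11 and 3.72 against -0.23, 1.90 and 1.52. Outer replicate 1 again stood lowest (-2.30 ± 0.54, adjusted p 0.0657), and without it the difference was -1.65 (adjusted p 0.0419). The replicate block gave 0.0498. Eng, a co-receptor for TGF-beta and BMP ligands, was at 2.44, 1.59 and 2.27 against 1.72, 1.05 and 1.2, so that the groups overlapped (-0.78 ± 0.29, adjusted p 0.188).

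**Figure D2:**
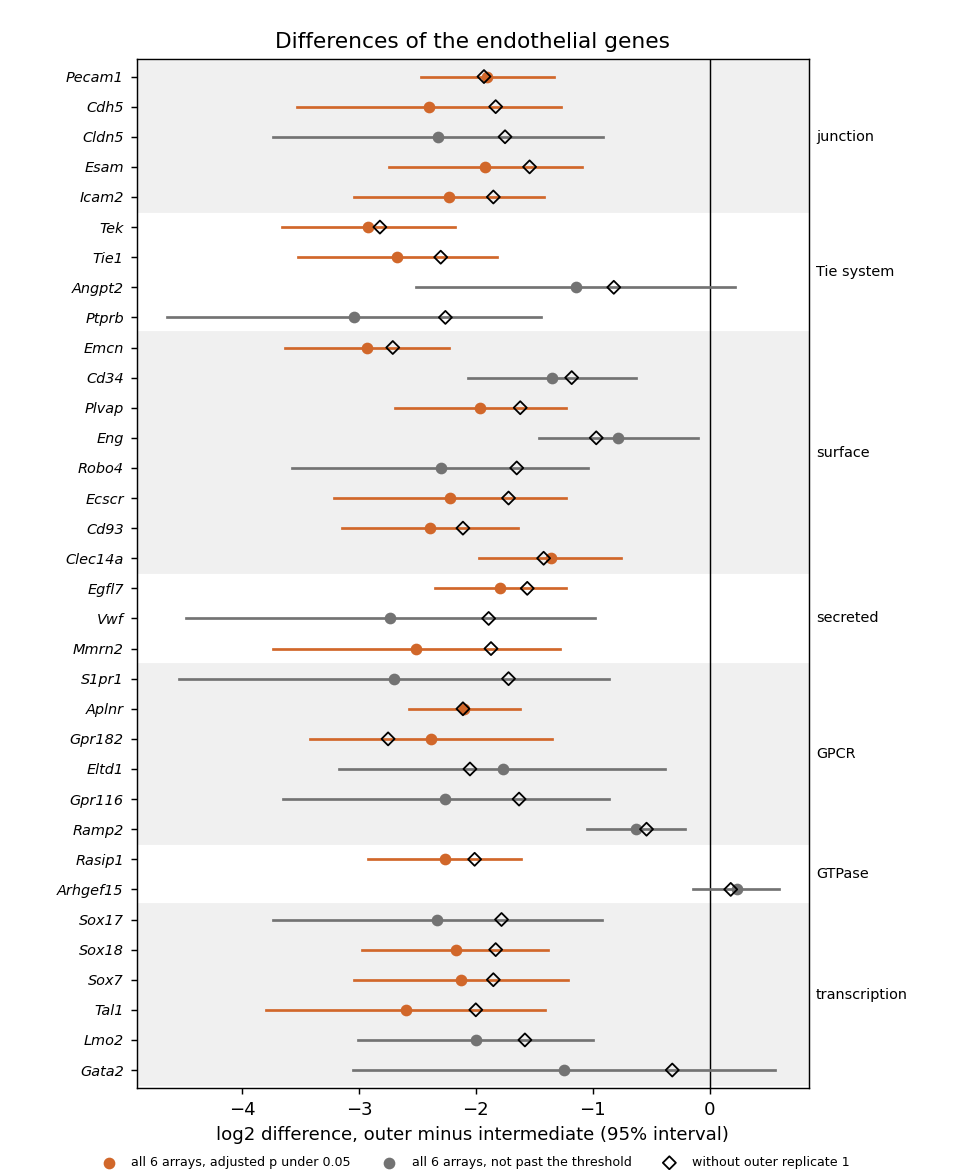
Log2 difference, outer minus intermediate, of the 34 endothelial genes with its 95% interval over all 6 arrays (filled circles, orange where the adjusted p was under 0.05 and grey otherwise) and without outer replicate 1 (open diamonds, no interval drawn). In 33 genes the circles and the diamonds both lie to the left of 0, and leaving out the array moved 28 of the 34 values toward 0.

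Of the secreted proteins, Egfl7 and Mmrn2 fell. Egfl7, a matrix protein that endothelial cells deposit around growing vessels, was at 5.85, 5.56 and 5.80 against 3.50, 4.24 and 4.10. The replicates of each group lay close together, and the difference was 3.45-fold (-1.79 ± 0.24, adjusted p 0.0159). Mmrn2, an endothelial matrix protein that Cd93 and Clec14a bind, measured 3.86, 3.70 and 4.2 against 0.13, 2.09 and 2.01. Most of its outer spread came from replicate 1 (-2.51 ± 0.52, adjusted p 0.0482), and the value without it was -1.87 (adjusted p 0.0263). Vwf, the clotting protein stored in endothelial granules and platelets, read 0.17, -0.07 and 1.09 against -4.0, -0.96 and -2.03. The 2 groups did not overlap, but the difference of -2.73 ± 0.74 did not pass (adjusted p 0.0993). Without outer replicate 1 it was -1.89 and did not pass either (adjusted p 0.109).

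Of the receptor genes, Aplnr and Gpr182 fell. Aplnr, the apelin receptor, was at 1.15, 1.11 and 1.28 on the intermediate arrays and at -0.89, -0.62 and -1.23 on the outer arrays. Within each group the arrays agreed closely, so that the difference of -2.10 ± 0.20 had the lowest adjusted p of the 34 genes (4.27-fold, adjusted p 0.00740). It was -2.11 without outer replicate 1 (adjusted p 0.0253), and the probe lies on chromosome 2 at 84979638 to 84979697 (mm9). Gpr182, a chemokine-binding receptor of endothelium, measured -0.65, -1.20 and -0.25 against -2.36, -2.92 and -3.97. It was 5.22-fold lower (-2.38 ± 0.44, adjusted p 0.0363), was well above background on 1 outer array, and lost its call with the slide block (-1.66, adjusted p 0.0962). Its normexp difference was -1.0 (adjusted p 0.0264), and quantile normalization gave an adjusted p of 0.0502. S1pr1, a receptor for sphingosine phosphate that steadies the vessel wall, read 1.61, 1.93 and 1.89 against -2.85, 0.48 and -0.31. Outer replicate 1 set most of this spread (-2.70 ± 0.78, adjusted p 0.113), and the remaining arrays gave -1.72 (adjusted p 0.0443).

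The last 3 genes of this class did not pass. Eltd1 and Gpr116, now named Adgrl4 and Adgrf5, are adhesion receptors of endothelium. Eltd1 was at -2.37, -3.28 and -2.42 against -3.92, -5.85 and -3.63 and stayed below the background criterion on all 3 outer arrays. Set against the lowest outer signals that met the criterion, it was 1.61-fold higher in the intermediate interzone, which is an approximate bound. The difference did not pass (adjusted p 0.153, and 0.188 without outer replicate 1), and the replicate block gave 0.0401. Gpr116 stood at 0.32 ± 0.73 and -1.94 ± 1.09 (mean ± SD), 4.78-fold lower, with an adjusted p of 0.0901. It was 0.0338 with the block and 0.122 without outer replicate 1. Ramp2, the partner protein of the adrenomedullin receptor, moved least among the genes below 0, from 4.46, 4.36 and 4.65 to 3.68, 3.86 and 4.03. The groups stayed apart at 1.55-fold (-0.63 ± 0.18, adjusted p 0.107).

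The 2 GTPase regulators parted. Rasip1, a Ras-binding protein needed for vessels to open a lumen, was at 2.3, 2.29 and 2.6 against -0.37, 0.66 and 0.11, a 4.80-fold difference (-2.26 ± 0.28, adjusted p 0.0137) with no overlap. Arhgef15, a guanine nucleotide exchange factor of endothelium and some other cells, read 1.78, 1.89 and 1.90 against 2.17, 2.09 and 1.99. It was the one gene of the 34 whose difference was above 0, at 0.23 ± 0.15 (95% interval -0.14 to 0.59, adjusted p 0.442), and its sign turned to -0.21 when arrays were scaled to the median and to -0.16 with the authors' deposited values. Its probe (chromosome 11, 68757516 to 68757575, mm9) met the background criterion on all 6 arrays.

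Of the transcriptional regulators, Sox7, Sox18 and Tal1 fell. Sox18, a SoxF factor of vessel and lymphatic development, was at 1.10, 1.19 and 1.38 against -1.64, -0.29 and -0.92 (4.52-fold, -2.17 ± 0.34, adjusted p 0.0220). Its relative Sox7 measured -0.20, 0.27 and 0.88 against -2.35, -1.13 and -1.94 (4.36-fold, adjusted p 0.0352), and its call was lost without outer replicate 1 (-1.85, adjusted p 0.0812). Tal1, which directs blood and endothelial fate, was at -0.07, -0.46 and 0.19 against -3.92, -2.04 and -2.17 (6.07-fold, -2.60 ± 0.50, adjusted p 0.0413). In all 3 genes every outer array lay below every intermediate array. Sox7 and Tal1 were each well above background on 2 outer arrays and passed the filter only through the intermediate group.

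Their partners did not pass the test. Sox17, the third SoxF factor, stood at -0.53 ± 0.83 and -2.85 ± 1.03 (mean ± SD), a difference of -2.33 with an adjusted p of 0.0858. It was 0.0365 with the replicate block and 0.151 without outer replicate 1. Lmo2, an adaptor that joins Tal1 to GATA factors, was at 1.10, 1.66 and 2.15 against -1.21, 0.24 and -0.12. The groups did not overlap (-2.0 ± 0.43, adjusted p 0.0517). The block gave 0.0287, and leaving out outer replicate 1 gave 0.0813. Gata2, a zinc finger factor of blood and endothelial cells, read -1.47, -0.51 and -0.96 against -4.08, -0.92 and -1.70, so that the groups overlapped. Its difference of -1.25 ± 0.76 (adjusted p 0.395) was -0.32 without outer replicate 1 (adjusted p 0.681). In the slide block, where that array alone stands for the outer interzone and the probe was not well above background on it, it was -3.10 (adjusted p 0.0161).

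Arrays of a group also ranked alike over many of the 34 genes. Outer replicate 1 was the lowest outer array for 26 genes, where it was so for 44.0% of all genes, and outer replicate 2 was the highest for 24 (44.3% of all genes). On the intermediate side, replicate 3 was the highest for 25 genes (24.6% of all genes) and replicate 2 the lowest for 21 (25.6% of all genes). Within the pairs of samples that share a replicate number, the median difference was -2.68, -1.44 and -2.25, against 0.11, 0.06 and 0.11 over all genes. The difference was below 0 in 33, 32 and 33 genes, so that all 3 pairs had the direction of the group means. The SD was larger in the outer group for 30 of the 34 genes, and for 60.4% of all genes, with a median of 0.70 against 0.36.

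Genes of other vessel pathways lay on both sides of 0. Among 9 tested VEGF ligands and receptors, 3 fell and 1 rose, where 2.48% of all tested genes were called lower and 1.57% higher. Flt1, a VEGF receptor that also acts as a decoy, was at 3.19, 2.79 and 3.49 against -0.58, 1.26 and 0.91 (6.18-fold, -2.63 ± 0.48, adjusted p 0.0341). Nrp1, a VEGF co-receptor that non-endothelial cells also use, was 4.09-fold lower (adjusted p 0.0187), and Vegfc, the lymphatic growth factor, 3.08-fold (adjusted p 0.0326, and 0.0873 without outer replicate 1). Nrp1 was well above background on 2 outer arrays and passed the filter only through the intermediate group, with a normexp difference of -1.2. Vegfa, the main attractant of vessels, read 1.73, 1.82 and 1.80 against 2.88, 2.74 and 2.39, so that all outer arrays lay higher (1.85-fold, 0.89 ± 0.18, adjusted p 0.0490). That call was lost when arrays were scaled to the median (adjusted p 0.299), with the slide block (0.0524) and without outer replicate 1 (0.118).

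Kdr, the main signalling receptor for VEGF, had 2 probes that disagreed. The probe used in the fit (chromosome 5, 76330395 to 76330454, mm9) read 4.88, 4.39 and 4.37 in the intermediate and 5.91, 4.66 and 5.52 in the outer interzone, a difference of 0.82 that did not pass (adjusted p 0.231). The other (chromosome 5, 76329309 to 76329368) read 2.93, 2.85 and 3.29 against -0.32, 1.4 and 1.10, a difference of -2.30. Both were well above background on all 6 arrays, so the direction of Kdr is not settled by these data.

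**Figure D3:**
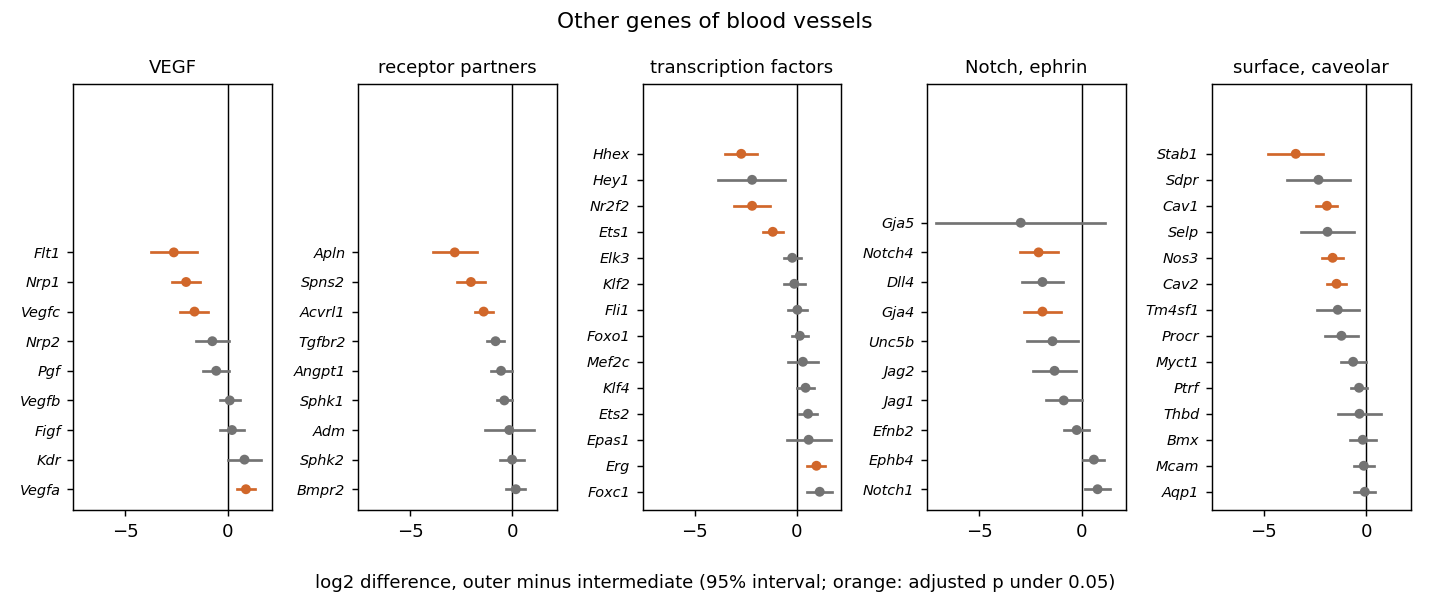
Log2 difference, outer minus intermediate, with its 95% interval for the tested genes of 5 lists of other vessel genes, orange where the adjusted p was under 0.05. Genes lie on both sides of 0 in the lists of VEGF genes, receptor partners, transcription factors and Notch genes, and all 14 surface and caveolar genes lie below it.

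The partners of the receptors above were followed as well. Of 9 tested, 3 fell and 0 rose (2.48% and 1.57% of all genes). Apln, the ligand of Aplnr that endothelial tip cells make, was at 1.92, 1.61 and 2.26 against -1.58, 0.19 and -1.25 (7.02-fold, adjusted p 0.0251, and 0.0540 without outer replicate 1). Spns2, which exports sphingosine phosphate, was 4.07-fold lower (adjusted p 0.0185), and Acvrl1, the receptor that works with Eng, 2.64-fold (adjusted p 0.0159). Sphk1 and Sphk2, the kinases that make sphingosine phosphate, differed by -0.39 and -0.01 and did not pass.

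Among 14 other transcription factors of endothelium, 3 fell and 1 rose (2.48% and 1.57% of all genes). Hhex, a homeobox factor of early endothelium, was 6.59-fold lower (adjusted p 0.0125), Nr2f2, the vein factor, 4.55-fold (adjusted p 0.0279), and Ets1, an ETS factor of endothelium and lymphocytes, 2.26-fold (adjusted p 0.0331, and 0.0829 without outer replicate 1). Hhex and Nr2f2 were well above background on 2 outer arrays and passed the filter only through the intermediate group. Their normexp differences were -1.46 and -1.29. Erg, an ETS factor of endothelium that developing joint cartilage also expresses, read -0.12, -0.48 and -0.08 against 0.68, 0.63 and 0.86, with no overlap (1.93-fold higher, 0.95 ± 0.18, adjusted p 0.0417). The call for Erg was lost when arrays were scaled to the median (adjusted p 0.277), with the slide block (0.0951) and without outer replicate 1 (0.0921). Fli1, its closest relative, differed by 0.02 (adjusted p 0.970).

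Of 10 Notch, ephrin and arteriovenous genes, Notch4, the Notch receptor of endothelium, was 4.30-fold lower (adjusted p 0.0377) and Gja4, a connexin of arteries, 3.76-fold (adjusted p 0.0450, and 0.106 without outer replicate 1). Notch4 was well above background on 2 outer arrays and passed the filter only through the intermediate group, with a normexp difference of -1.58. The share called lower over all tested genes, for this list and the next, was 2.48%. Of 14 surface and caveolar genes, 4 fell, namely Stab1, a scavenger receptor that macrophages share (-3.44, adjusted p 0.0262, and 0.0505 without outer replicate 1), Cav1 (-1.92, adjusted p 0.0101) and Cav2 (-1.45, adjusted p 0.0179), the coat proteins of caveolae, and Nos3, the endothelial nitric oxide synthase (-1.64, adjusted p 0.0159).

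Markers of other cell types moved in the same comparison. Summed over the 34 endothelial genes, the signal in multiples of the array's 75th percentile was 235 to 312 on the intermediate and 62.0 to 99.6 on the outer arrays. Of 17 tested leukocyte and macrophage markers, 14 fell, with a median of -3.26, and 11 without outer replicate 1. Over all tested genes 2.48% were called lower and 1.57% higher. Without that array 1.43% were called lower and 0.96% higher. Emr1, Cx3cr1, Mrc1, C1qa, C1qc, Cd14, Fcgr3 and Lyz2 passed the filter only through the intermediate group, so the count and median are a description. Lyz2 was well above background on 0 outer arrays, and its normexp difference was -1.19. The summed signal of the 17 markers was 114 to 187 and 57.7 to 132, with Itgam, which differed by 0.76 (adjusted p 0.486), carrying most of the outer sum. Without Itgam, the other 16 markers summed to 90.9 to 160 and 9.1 to 27.8. Of 5 platelet markers Pf4 and Itga2b fell, and Gp1bb differed by 0.90 (adjusted p 0.303). The summed signals were 19.0 to 34 and 2.24 to 6.88, with Pf4 carrying most of the intermediate sum. Itga2b was well above background on 1 outer array and passed the filter only through the intermediate group. Its call was lost without outer replicate 1 (adjusted p 0.0503). Of 10 markers of pericytes and smooth muscle, Rgs5 and Tagln fell and Cspg4 rose, with a median of -1.15 and summed signals of 80.0 to 83.7 and 35.7 to 63.2. The call for Cspg4 was lost without outer replicate 1 (adjusted p 0.0669) and when arrays were scaled to the median (0.148). Cartilage markers went the other way, 7 of 9 being higher with a median of 2.75. Their summed signals were 81.0 to 143 and 609 to 897, with Col2a1 carrying most of the outer sum. Among the 7, Matn1 passed the filter only through the outer group. Without outer replicate 1 the count was 6, as Col9a2 lost its call (adjusted p 0.0656). Acan lost its call when arrays were scaled to the median (0.104). Of the lymphatic markers Lyve1, which macrophages also carry, fell, Pdpn differed by -0.16 (adjusted p 0.804), and Prox1 and Reln were not well above background on any array. Lyve1 was well above background on 2 outer arrays and passed the filter only through the intermediate group. Its call was lost without outer replicate 1 (adjusted p 0.0557). The part of these lists in the endothelial differences was not tested.

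Red cell markers, which would follow blood in the tissue, gave no call in the unblocked limma fit, and 0 of them had an unadjusted p under 0.05. With the replicate block Hbb-y (adjusted p 0.0441) and Slc4a1 (0.0378) were called lower, and with the slide block Hba-a1 (0.00979), Hbb-b1 (0.0186) and Alas2 (0.0182). Their 7 tested genes had a median of -1.49, and -0.51 without outer replicate 1, and in none did the groups stay apart (against 27.1% of all genes). Their mean level was 2.99, 4.54 and 4.50 on the intermediate and 0.89, 3.83 and 3.44 on the outer arrays, so that replicate 1 was lowest in both layers. The mean endothelial level was 1.54, 1.41 and 1.93 against -1.08, 0.07 and -0.22, and the part of blood in it was not tested.

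**Figure D4:**
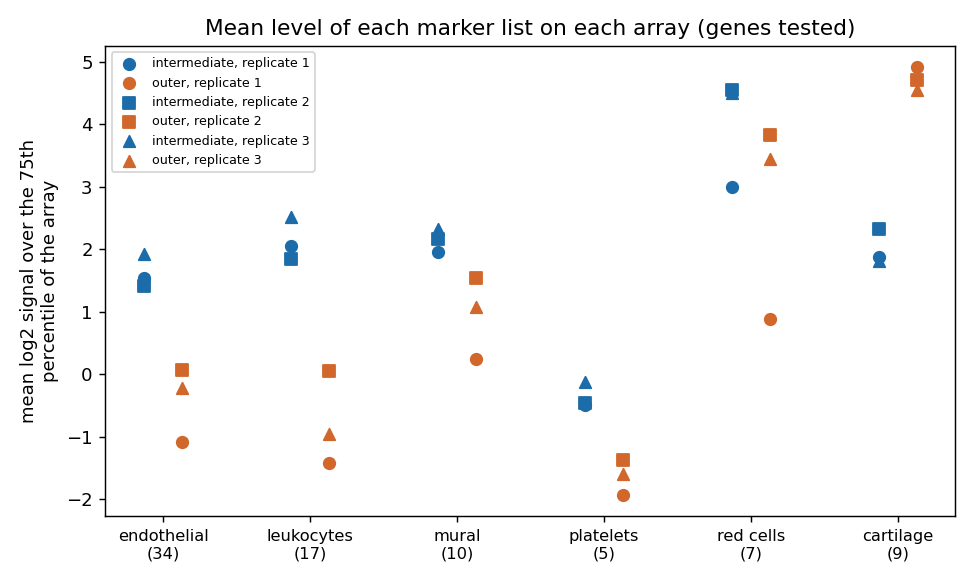
Mean log2 level, relative to the array's 75th percentile, for the tested genes of 6 marker lists (number of genes in parentheses) on each of the 6 arrays, intermediate in blue and outer in orange, with 1 marker shape per replicate number. The endothelial, leukocyte, mural and platelet means are lower on all outer arrays than on all intermediate arrays, the cartilage means are higher on all outer arrays, and the red cell means overlap.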

How the data were processed

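Total RNA of 6 samples was amplified, labelled with Cy3 and hybridised to 1 array each, per the labels' protocols. Each deposited scanner file gives the processed signal intensity of every spot, background-subtracted by Agilent Feature Extraction 10.7.3.1 with probe positions on build mm9, per the file headers. Partek 6.11.0321 is listed too, with no role, per the submitters' processing notes. The authors' deposited table holds the same processed signal intensity divided by 1 constant per array (spread at most 0.000117%), with a median of 1 per array and no log or centring. It was used as an alternative.

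Control and outlier spots were left out, repeated spots were averaged, and the main value was log2 processed signal minus the array's 75th percentile. Of 55681 probes, 9 had no value on some array. RefSeq accessions were given for 28388 probes, and 26760 of these found a symbol in the GRCm38.p6 table, which served for names only, and 2878 symbols changed. Testing required signal well above background on all 3 arrays of either group, and the brightest such probe stood for its gene. Of the 34 endothelial genes, 27 had 1 probe, 5 had more than 1 tested probe, and 0 of these 5 had probes of opposite sign. No spot was saturated. Where a probe was below that criterion in a whole group, its fold was computed against each array's lowest signal that met the criterion, or against the probe itself where higher. A probe can miss the criterion at a higher signal, as Notch4 did on outer replicate 1, so that fold is an approximate bound.

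Groups were compared by lmFit and eBayes of limma 3.58.1 (R 4.3.3; two-sided, all 6 arrays, no block), adjusted by Benjamini-Hochberg over 18001 genes, with a threshold of 0.05. With 3 arrays per group, precision is limited by their number. On simulated data of 18001 genes, the fit called 62% of genes changed by 2 on the log2 scale and 92% of those changed by 4. Same-numbered samples deviated together (correlations of 0.563, 0.479 and 0.372, and at most 0.114 for the other pairings), so the numbers were taken to pair the samples, and the paired fit is an alternative. Whether they come from the same embryos is not stated.

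The 34 genes and all lists were chosen with earlier results of these data known. All 34 are described. From lists of other vessel genes, at most 4 called genes each were named, with Kdr, Flt1, Erg and Vegfa, and a few ligands, kinases and partners of the members were added after their values were seen. The rule for printing promoters found none, so those shown were chosen afterwards. Protein sequences were not used here.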

Additional observations from a re-analysis of the deposited data

How the results depend on the processing

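Over 19 alternatives the number of endothelial genes past the threshold moved, while the number below 0 hardly did. The count called higher was 0 under each of them, and 33 or 34 genes were below 0 except in the fit of the 20 genes with signal on all 6 arrays, where 19 were. Against 19 genes called lower, there were 30 with arrays scaled to the median, 29 with the authors' deposited values and 12 with quantile normalization. Among the named genes of the other vessel lists, quantile normalization lost the calls of Flt1, Vegfc, Vegfa, Nr2f2, Ets1, Erg, Notch4 and Gja4 (adjusted p 0.0501 to 0.0604). Scaling to the median shifted the median of all genes from 0.10 to -0.34 and the calls over all genes from 447 lower and 282 higher to 996 and 148. Relative to all genes, the median of the endothelial genes was -2.32 under both. With no filter on dim probes, limma called 0 of 35077 genes, and 30 endothelial genes were lower at an unadjusted p of 0.05. Leaving out 1 array gave 1 to 25 calls. The replicate block gave 26 and changed, among the endothelial genes, the calls of Cd34, Cldn5, Lmo2, Robo4, Sox17, Gpr116 and Eltd1. It changed no call among the named genes of the other vessel lists. The red cell markers Hbb-y and Slc4a1 were called lower with it. Both further settings were chosen after seeing the data. The replicate block with quantile normalization gave 0 calls (31 at an unadjusted p of 0.05, smallest adjusted p 0.0508) where 0.117% of all genes were called lower, and the replicate block with both replicate 1 samples left out gave 1 where 0.253% were. The median difference of -2.22 became -1.59 with normexp background correction and quantile normalization, and -2.91 both with the slide block and within slide 1. Arhgef15 turned to -0.21 with arrays scaled to the median and to -0.16 with the authors' deposited values, and Kdr to -0.74 with the mean of its probes. For other changes of call the cause was not tested. The alternatives were also counted over the 34 endothelial genes, the called genes named from the other vessel lists, and Kdr. Of these values 626 kept direction and side of the threshold, 275 lost a call, 66 gained one and 3 turned. Signal over background limits the outer group, where 20, 33 and 30 of the 34 genes were well above background on replicates 1, 2 and 3.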
